A study of Mus musculus with 2 samples.

Results

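The genes examined here carry FGF and PDGF signalling in the lineage choices of embryonic stem cells (ESCs). They were set by name, with earlier results of these data known, so counts of them are descriptions only. They comprise the ligand *Fgf4*, the receptors *Fgfr1*, *Fgfr2*, *Fgfr3*, *Fgfr4* and *Pdgfra*, and the feedback and target genes *Dusp6*, *Spry2*, *Spry4* and *Etv5*. They are 10 of the 37310 genes of the GENCODE M1 annotation of mm9. The study sequenced non-polyadenylated (NPA) RNA, the RNA left after removal of poly(A) RNA on oligo(dT), from mouse R1 ESCs and from neuronal progenitor cells (NPCs) derived from them. There was 1 library per cell type. The R1 line is male, and the ESCs, at passage 18, were grown on mitomycin C-treated mouse embryonic fibroblasts (MEFs) with 15% serum and leukemia inhibitory factor at 1000 U/ml. The NPCs came from the same line through 4 days as embryoid bodies without this factor, were then plated on poly-L-ornithine and fibronectin in DMEM/F12 with insulin, transferrin and selenium, and were collected on day 7. The labels name no FGF or PDGF added to either medium. Neither culture was sorted, so each library can hold more than 1 kind of cell.

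FGF4 is secreted by pluripotent cells and acts through FGF receptors, adaptor proteins and the Ras-MAPK cascade to activate ERK. ERK signalling prepares ESCs to leave self-renewal, and in the early embryo it favours the primitive endoderm over the epiblast. Primitive endoderm cells carry the PDGF receptor PDGFRA, whose main ligand is PDGF-A. Sprouty proteins and the phosphatase DUSP6 are induced by the pathway and damp it, and ETV5 is an ETS factor whose gene is among its targets.

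The libraries held 4271306 reads for ESCs and 4399729 for NPCs, and levels are given in reads-per-million units (RPM), in which 1 read is worth 0.234 and 0.227. With 1 library per cell type there is no replicate check and no test between cell types. Each fold value compares these libraries, and its 95% interval covers counting error only, while PCR copies of the same fragment are not independent molecules. The median gene with at least 10 reads stood 0.35 higher in NPCs on the log2 scale, and ratios relative to this median are given where stated. The markers of the label, also listed with earlier results of these data known, were checked in each library. Of 14 pluripotency markers, 9 were more than 2-fold higher in ESCs and 0 in NPCs, beside 13.3% and 25.5% of all genes with at least 10 reads. The neural progenitor markers summed to 81.2 RPM in ESCs and 98.2 RPM in NPCs over 12 genes. Of the 6 with at least 10 reads, 2 were more than 2-fold higher in NPCs and 0 in ESCs. The count of 2 is near the share of all genes, 25.5%. The 2 genes were *Zic1*, with 1 read in ESCs and 22 in NPCs, and *Pax6*, with 1 and 12. *Sox3* and *Pou3f2* went from 0 reads to 5 each, *Hes5* and *Fabp7* had 2 each in NPCs, and *Olig2* had 0 in both libraries. Most reads of this list came from *Otx2*, *Nes*, *Msi1* and *Dll1*, each within 2-fold. *Otx2* (1.43-fold, 1.12 to 1.85) and *Nes* (1.78-fold, 1.31 to 2.44) were higher in NPCs. *Msi1* (1.70-fold, 1.22 to 2.38) and *Dll1* (1.80-fold, 1.21 to 2.73) were higher in ESCs. The markers of extraembryonic endoderm summed to 831 and 15610 RPM over 17 genes. Most of these reads, in each library, came from *Col4a1*, *Sparc*, *Lamb1*, *Lama1* and *Col4a2*. In NPCs these stood at 4717, 3143, 2356, 2352 and 2181 RPM, in that order. Of the 16 endoderm markers with at least 10 reads, 15 were more than 2-fold higher in NPCs, beside 25.5% of all genes. The library labelled NPC therefore held many reads of the endoderm markers. It held few of the neural markers outside *Otx2*, *Nes*, *Msi1* and *Dll1*, though for some of them more than the ESC library. Its label is used below as a name only.

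The ligand *Fgf4* and the target gene *Etv5* had the highest read densities of the 10 genes in ESCs, whereas *Pdgfra* had the highest in NPCs. All 10 genes had at least 10 reads in the libraries together. *Fgf4*, *Spry4* and *Etv5*, 3 of the 10, were more than 2-fold higher in ESCs, which was true of 13.3% of the 14859 genes with that many reads. *Fgfr2*, *Fgfr3* and *Pdgfra*, again 3 of 10, were more than 2-fold higher in NPCs, against 25.5% of genes. The other 4, *Fgfr1*, *Fgfr4*, *Dusp6* and *Spry2*, lay within 2-fold. When libraries were scaled by the median of ratios over genes, the shares over all genes became 19.3% higher in ESCs and 16.5% higher in NPCs, and with each start position and strand counted once they were 12.1% and 12.9%. The counts of 3 and 3 genes did not move under either. The median log2 ratio of the 10 genes was -0.01, or -0.35 relative to the median gene. The genes thus lay on both sides of the median gene.

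**Figure D1:**
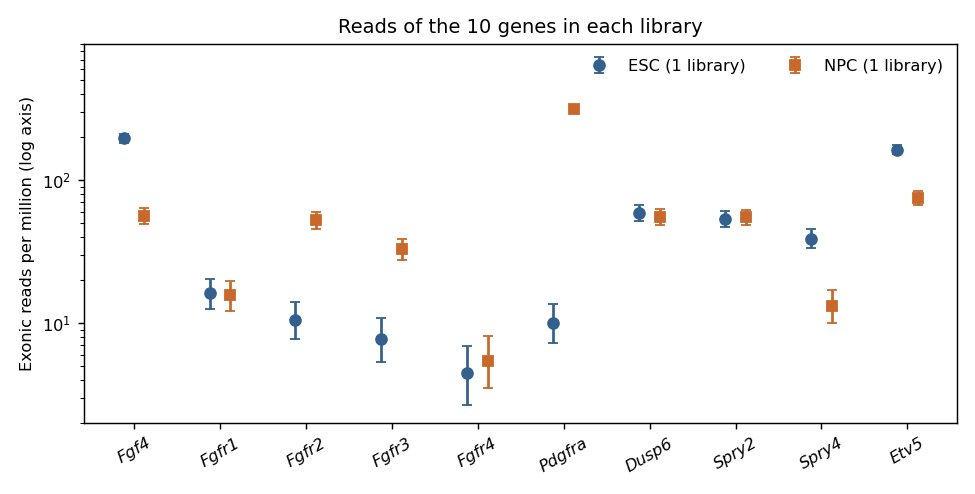
Exonic RPM of each of the 10 genes (log axis) in the ESC library (circles) and the NPC library (squares), with exact Poisson 95% intervals of the count as bars and 1 library per cell type. *Pdgfra* goes from 10.1 RPM in ESCs to 317 RPM in NPCs, whereas *Dusp6* and *Spry2* lie between 53.8 and 59.0 RPM in both.

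*Fgf4* encodes the FGF ligand of pluripotent cells and lies on chromosome 7 at 152047291 to 152051148 of mm9, plus strand, with 3 exons. It had 841 reads in ESCs (197 RPM, 95% interval 184 to 211) and 248 reads in NPCs (56.4 RPM, 49.6 to 63.8). The level was 3.49-fold higher in ESCs (3.03 to 4.04), or -1.80 as log2 of NPC over ESC and -2.15 relative to the median gene. The intervals of the levels do not overlap, and 5.32% of genes had a ratio further towards ESCs. Each of the 3 exons had more reads in ESCs, mostly over the last exon, which holds the end of the coding sequence and the 3′ UTR. This exon had 821 and 242 reads, the first had 11 and 0, and exon 2 had only 9 and 6. Read density (RPKM, RPM per kilobase) was uneven along the gene, at 5.76 over exon 1, 20.3 over exon 2 and 77.5 RPKM over exon 3 in ESCs, and at 0, 13.1 and 22.2 RPKM in NPCs. Most reads of the coding sequence thus came from its end in exon 3. The coding position where most *Fgf4* reads began is shown in its exon, with capitals marking the 48 bases of those reads and lower case up to 30 coding bases on each side (chr7:152048686-152048793, plus strand, mm9). In ESCs 32 reads began there, and in NPCs 6.
Fgf4: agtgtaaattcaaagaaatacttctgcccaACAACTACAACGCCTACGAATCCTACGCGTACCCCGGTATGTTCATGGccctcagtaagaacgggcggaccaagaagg

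Among the receptors, *Fgfr2* and *Fgfr3* were higher in NPCs and *Fgfr1* and *Fgfr4* were close to equal. The 4 genes encode the tyrosine kinase receptors of the FGF family. *Fgfr1*, on chromosome 8 at 26624126 to 26686186, had 69 reads in each library, or 16.2 RPM (12.6 to 20.4) in ESCs and 15.7 RPM (12.2 to 19.8) in NPCs. The ratio of NPC to ESC was 0.971 (0.685 to 1.38), so a difference beyond these bounds was not seen at this depth. A further gene model of the same symbol lies inside *Fgfr1* and shares all 761 of its exonic bases with it. Its 11 reads in ESCs and 10 in NPCs are among the 69 and cannot be assigned to one model or the other. *Fgfr4*, on chromosome 13 at 55254001 to 55270120, had the fewest reads of the 10 genes, 19 in ESCs (4.45 RPM) and 24 in NPCs (5.45 RPM). Its ratio of 1.23 (0.644 to 2.37) leaves room for a change of more than 2-fold towards NPCs that these counts cannot show.

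*Fgfr2* had 45 reads in ESCs (10.5 RPM, 7.68 to 14.1) and 231 in NPCs (52.5 RPM, 46.0 to 59.7). The gene was 4.98-fold higher in NPCs (3.61 to 7.02), a log2 ratio of 2.32, or 1.97 relative to the median gene. Its annotated span, chromosome 7 at 137305965 to 140315033 on the minus strand, runs over the neighbouring gene *Ctbp2*, with which it shares 2 exons. Without these exons 34 and 210 reads remained and the ratio was 6.00 (4.16 to 8.89). In the 18-exon transcript Fgfr2-004, which holds exon IIIc, 17 exons were higher in NPCs, 0 were higher in ESCs and 1 had no read. A single position in the exon that starts the coding sequence, 84 bases before the start codon, was the start of 36 of the 231 reads in NPCs and of 3 in ESCs. Leaving these out, the ratio was 4.51 (3.22 to 6.45), so the higher level in NPCs did not rest on this position.

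*Fgfr3*, on chromosome 5 at 34064373 to 34079716, had 33 reads in ESCs (7.73 RPM, 5.32 to 10.9) and 145 in NPCs (33.0 RPM, 27.8 to 38.8). It was 4.27-fold higher in NPCs (2.91 to 6.43), a log2 ratio of 2.09, or 1.75 relative to the median gene. The log2 ratio was smaller, at 1.38, when each start position and strand was counted once, and at 1.31 over the 5′ part of the exonic sequence, both still past 2-fold. The reads of *Fgfr3* lay towards the 3′ end. Before the midpoint of its exonic sequence lay 27.3% of reads in ESCs (13.3 to 45.5%, exact binomial interval) and 16.2% in NPCs (10.6 to 23.3%). This midpoint is that of all merged exons, which for *Fgfr3* are longer together than its transcript Fgfr3-201. The shares depend on that choice. For the 7356 genes with at least 50 reads in each library the median share was 51.9% in ESCs and 49.7% in NPCs. *Fgfr4* reads lay towards the 3′ end too, with 22.2% before the midpoint in ESCs (6.41 to 47.6%) and 28.6% in NPCs (11.3 to 52.2%). *Fgfr1* had the highest shares of the 10 genes, with 69.1% of reads before the midpoint in ESCs (56.7 to 79.8%) and 68.8% in NPCs (55.9 to 79.8%). For each of these 3 genes the intervals of the libraries overlap. A difference in read position between the libraries was thus not seen, and these counts are too few to show likeness.

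The ligand-binding choice of *Fgfr1*, *Fgfr2* and *Fgfr3* is set by alternative exons IIIb and IIIc, which encode the end of the membrane-proximal immunoglobulin domain. The IIIb form is typical of epithelia and the IIIc form of mesenchyme, and FGF4 binds mainly IIIc forms. Over all 3 genes only 12 reads overlapped these exons. *Fgfr2* had 0 reads over either exon in ESCs, and 4 over IIIb and 1 over IIIc in NPCs, a IIIc share of 20% (0.505 to 71.6%). *Fgfr1* had 2 reads over IIIb and 0 over IIIc in ESCs and 1 over each in NPCs, and *Fgfr3* had 0 over either in ESCs and 1 over IIIb and 2 over IIIc in NPCs. The exon choice was not measurable at this depth in either library. Exon IIIb of *Fgfr2* is shown because it had the most reads of these exons. At its 3′ end only the last 2 bases were covered, an overlap too short to show that the exon was used. Capitals mark the 75 of its 148 bases covered by a read in NPCs (chr7:137343272-137343419, minus strand, mm9).
Fgfr2 exon IIIb: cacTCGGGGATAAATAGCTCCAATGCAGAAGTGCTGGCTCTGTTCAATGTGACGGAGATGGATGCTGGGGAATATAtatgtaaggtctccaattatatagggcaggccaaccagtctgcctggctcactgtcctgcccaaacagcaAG

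*Pdgfra*, the receptor of PDGF-A and a marker of primitive endoderm, showed the largest ratio of the 10 genes. It lies on chromosome 5 at 75548316 to 75594229, plus strand. It had 43 reads in ESCs (10.1 RPM, 7.29 to 13.6) and 1394 in NPCs (317 RPM, 300.4 to 334). The level was 31.5-fold higher in NPCs (23.2 to 43.7), a log2 ratio of 4.98, or 4.63 relative to the median gene, and 99.4% of genes had a lower ratio. When each start position and strand was counted once, the log2 ratio was 3.85 and still past 2-fold. In the 23-exon transcript Pdgfra-202, 22 exons were higher in NPCs and 1 had no read. Exon 3, which lies in the coding sequence, went from 10 reads to 164 in NPCs, and the last exon from 14 to 598. The higher level thus ran along the whole transcript, and 54.4% of reads in NPCs lay before the midpoint (51.7 to 57.1%). Of the alternative first exons, that of Pdgfra-201 had 1 and 22 reads and that of Pdgfra-202, further downstream, 0 and 3. Most *Pdgfra* reads over a first exon in NPCs therefore lay on the upstream one. The coding position with the most read starts is shown as for *Fgf4* (chr5:75559705-75559812, plus strand, mm9), and 2 reads began there in ESCs and 18 in NPCs.
Pdgfra: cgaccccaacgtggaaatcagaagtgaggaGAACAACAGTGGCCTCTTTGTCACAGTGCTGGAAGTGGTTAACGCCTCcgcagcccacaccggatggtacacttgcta

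In these bulk cultures, fewer cells of a type and less RNA per cell cannot be told apart. The endoderm markers moved in the same direction as *Pdgfra*. *Gata6*, a factor of primitive endoderm, had 8 reads in ESCs and 459 in NPCs (55.7-fold higher, 28.0 to 130), and *Sox17*, a factor of the same lineage, had 8 and 383 (46.5-fold, 23.4 to 108). *Foxa2* had 2 and 113 reads, and *Afp*, expressed in visceral endoderm, 1 and 141. Within the list *Ttr* had 0 reads in ESCs and 37 in NPCs. Fibroblasts, the cells of the feeder layer, also express *Pdgfra*. The 14 fibroblast markers summed to 146 RPM in ESCs and 181 RPM in NPCs, with *Lum* at 0 reads in both libraries. Of the 12 with at least 10 reads, 3 were more than 2-fold higher in each direction. Over all genes the shares were 13.3% towards ESCs and 25.5% towards NPCs. *Pdgfrb*, which is on that list, had 93 and 21 reads, *Thy1* 79 and 12, *Fbln1* 250 and 103, *Col1a2* 51 and 165, and *Acta2* 27 and 331. The early mesoderm list, another source of *Pdgfra*, summed over 8 genes to 32 reads in ESCs and 100 in NPCs. Of the latter, 56 came from *Hand1* and 29 from *Kdr*. *Eomes* had 12 and 14 reads, *T* 5 and 0, *Tbx6* 1 and 0 and *Mixl1* 1 in each, and *Mesp1* and *Msgn1* had 0 in both. The part of endoderm, fibroblast or mesoderm cells in the *Pdgfra* values was not tested.

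**Figure D2:**
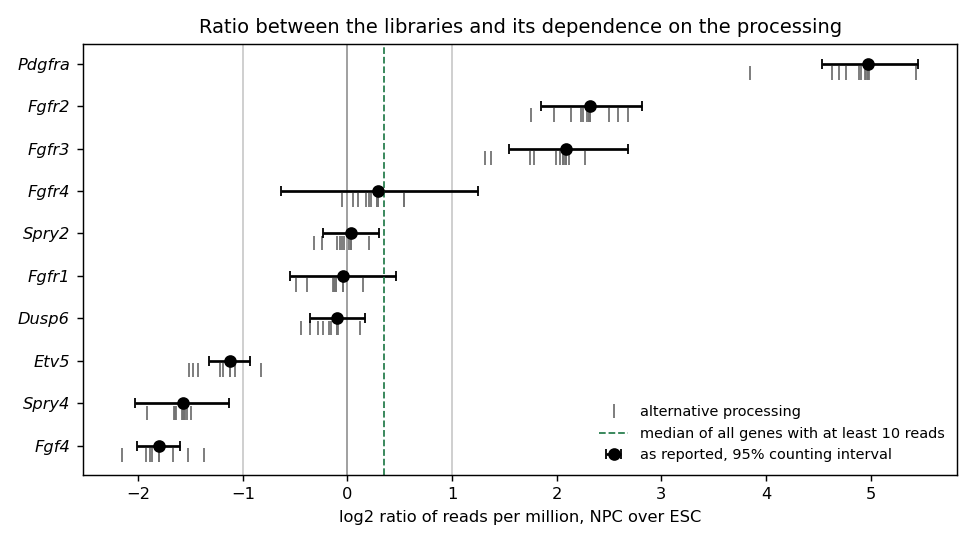
Log2 ratio of RPM in NPCs over ESCs for each of the 10 genes (black points, bars are 95% counting intervals), with the values under alternative processing as grey ticks, the median of all genes as a dashed line and 2-fold in either direction as grey lines. *Pdgfra* stays between 3.85 and 5.44 under every alternative, whereas *Fgfr1*, *Fgfr4*, *Dusp6* and *Spry2* stay within 2-fold.

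The 4 feedback and target genes split into a pair that differed little and a pair that was higher in ESCs. *Dusp6*, a phosphatase of ERK (chromosome 10, 98725865 to 98730122), had 252 reads in ESCs (59.0 RPM, 51.9 to 66.8) and 243 in NPCs (55.2 RPM, 48.5 to 62.6), a ratio of 0.936 (0.782 to 1.12). *Spry2*, an inhibitor of receptor tyrosine kinase signalling (chromosome 14, 106291166 to 106296036), had 230 reads (53.8 RPM, 47.1 to 61.3) and 242 (55.0 RPM, 48.3 to 62.4), a ratio of 1.02 (0.849 to 1.23). For both genes the intervals of the ratio exclude a change of 1.5-fold between these libraries, under scaling by library total. Relative to the median gene the log2 ratios were -0.44 for *Dusp6* and -0.31 for *Spry2*. The sign of these small ratios changed with the processing, between -0.44 and 0.12 for *Dusp6* and between -0.31 and 0.20 for *Spry2*, and no alternative took either past 2-fold. Inside *Dusp6* the counts differed most over exon 3 of the transcript Dusp6-202. This exon, with 254 bases of coding sequence, had 72 reads in ESCs against 43 in NPCs, whereas exon 2 had 46 in each library. It ends at 98728879 and exon 4 starts at 98728882, so reads across that gap count in both exons. Of the 252 reads in ESCs, 57 began between 50 and 55% of the exonic sequence, and 23 in NPCs. No interval was computed for single exons.

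*Spry4*, a further Sprouty inhibitor, had 167 reads in ESCs (39.1 RPM, 33.4 to 45.5) and 58 in NPCs (13.2 RPM, 10.0 to 17.0). It was 2.97-fold higher in ESCs (2.19 to 4.07), a log2 ratio of -1.57, or -1.91 relative to the median gene. The difference lay in exon 2, with 163 reads in ESCs and 55 in NPCs, as exon 1 had only 4 and 3. The ratio of *Spry4* differed from that of its family member *Spry2* by more than their counting intervals, which do not overlap.

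*Etv5* (chromosome 16, 22381382 to 22439792, minus strand) had 699 reads in ESCs (164 RPM, 152 to 176) and 330 in NPCs (75.0 RPM, 67.1 to 83.5). It was 2.18-fold higher in ESCs (1.91 to 2.49), a log2 ratio of -1.13, or -1.47 relative to the median gene. In the 14-exon transcript Etv5-201, 11 exons were higher in ESCs, 0 were higher in NPCs and 3 had no read. The difference was greater in the coding sequence, with 343 reads in ESCs and 124 in NPCs (log2 ratio -1.51), than over the 3′ UTR, with 382 and 225. Before the midpoint of the exonic sequence the log2 ratio was -1.43 and after it -0.82, so the 2-fold line was not reached in the 3′ part. *Etv5* also differed from the other 9 genes in uniqueness, as 75.4% of its reads in ESCs and 75.2% in NPCs had a sequence found once in mm9, against 98.6 to 100% for the others. The coding position with the most *Etv5* read starts is shown as above (chr16:22412943-22413047, minus strand, mm9), with 20 reads in ESCs and 4 in NPCs.
Etv5: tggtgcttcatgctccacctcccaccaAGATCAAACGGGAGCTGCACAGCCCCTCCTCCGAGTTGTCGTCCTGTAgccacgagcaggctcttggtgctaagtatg

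**Figure D3:**
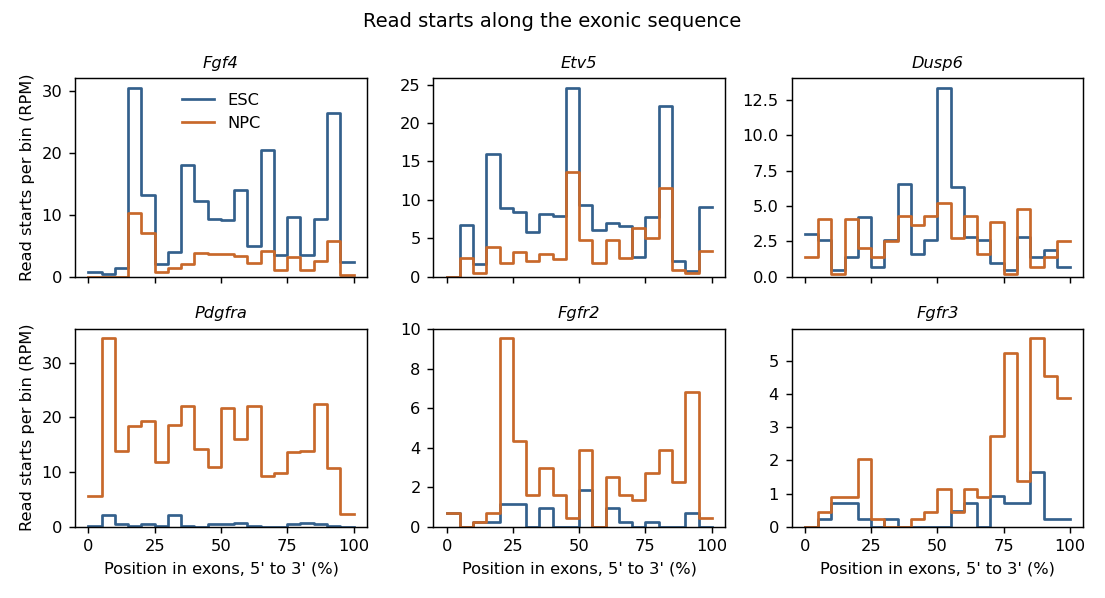
Read starts (RPM, linear axes that differ between panels) in 20 equal bins along the exonic sequence of 6 of the genes, from 5′ to 3′, in ESCs (blue) and NPCs (orange). *Pdgfra* reads in NPCs cover the whole length, with 54.4% before the midpoint, whereas only 16.2% of *Fgfr3* reads in NPCs lie there.

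Levels were compared between genes per length of all merged exons, in RPKM. For genes with several transcripts this length can exceed that of any single transcript, and the counting intervals do not cover that choice. Reads were aligned to the genome, so reads across exon junctions can be lost. Such loss weighs more on genes with many short exons, the receptors among them, and the densities were not corrected for it. In ESCs the order was *Fgf4* at 64.98, *Etv5* at 39.9, *Spry2* at 25.8, *Dusp6* at 21.1 and *Spry4* at 8.52 RPKM, and each neighbour in this order differed beyond counting error. The receptors followed, with *Fgfr1* at 2.00, *Pdgfra* at 1.49, *Fgfr2* at 1.35, *Fgfr4* at 1.25 and *Fgfr3* at 1.12 RPKM, and no neighbours among these 5 differed beyond counting error. In NPCs *Pdgfra* came first at 47.0 RPKM, 1.78 times the density of *Spry2* at 26.4 RPKM (1.55 to 2.05). *Dusp6* at 19.8, *Fgf4* at 18.6 and *Etv5* at 18.3 RPKM were indistinguishable from their neighbours within this group. *Fgfr2* at 6.73 RPKM exceeded *Fgfr3* at 4.79 by 1.41 times (1.14 to 1.74), followed by *Spry4* at 2.87, *Fgfr1* at 1.95 and *Fgfr4* at 1.53 RPKM, of which the last neighbours did not differ beyond counting error. In these uncorrected densities the ligand and the feedback genes stood above all receptors in ESCs, and in NPCs *Pdgfra* stood above them. *Fgf4* exceeded 93.3% of genes with at least 10 reads in RPKM in ESCs and 76.7% in NPCs.

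Reads within introns, on the strand of the gene, were counted as a measure of unspliced RNA. The authors had removed reads in repeats, so these densities are too low and only ratios between libraries are compared. *Pdgfra* had 7 intronic reads in ESCs and 180 in NPCs, 25.0-fold higher in NPCs (11.9 to 63.0), and 12 further reads in NPCs and 0 in ESCs crossed an exon-intron boundary by at least 4 bases on each side. *Etv5* had 219 and 102 intronic reads, 2.21-fold higher in ESCs (1.74 to 2.83), and *Spry4* had 31 and 7, 4.56-fold higher in ESCs (1.97 to 12.3). For these 3 genes the intronic ratio had the direction of the exonic one and overlapping intervals. *Fgfr2*, without the stretch that runs over *Ctbp2*, had 65 and 102 intronic reads, a ratio of 1.52 (1.11 to 2.11). This lay below its exonic ratio of 4.98 (3.61 to 7.02), with no overlap of the intervals. The exonic ratio includes the exons shared with *Ctbp2*, and without them it was 6.00 (4.16 to 8.89). *Fgfr1* had 63 and 40 intronic reads, 1.62-fold higher in ESCs (1.07 to 2.48). Its exons had equal counts, and their interval (0.727 to 1.46, ESC over NPC) overlaps the intronic one. The remaining genes had between 2 and 16 intronic reads per library, too few for a comparison. On the opposite strand of the exons the 10 genes had 0 to 2 reads per library.

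**Figure D4:**
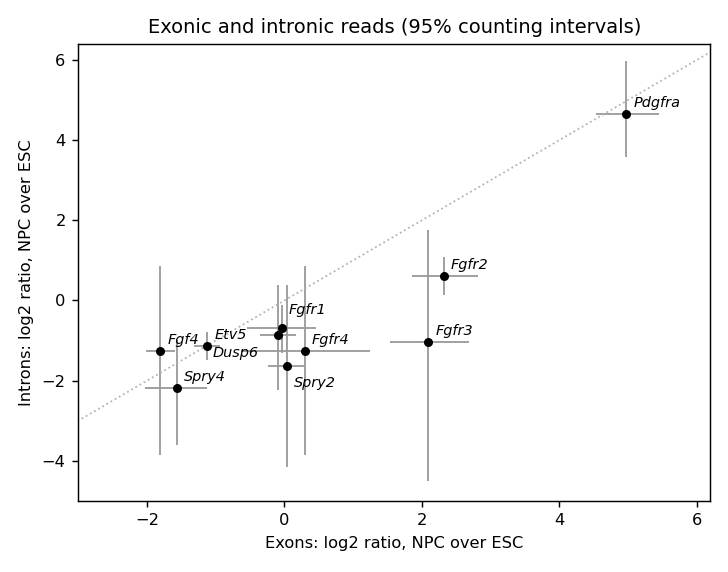
Log2 ratio of NPC over ESC from intronic reads (vertical) against that from exonic reads (horizontal) for the 10 genes, with 95% counting intervals as bars and the line of equal ratios dotted. *Pdgfra* lies near the line at 25.0-fold and 31.5-fold, whereas *Fgfr2* lies below it at 1.52-fold and 4.98-fold. The exonic value of *Fgfr2* includes exons shared with *Ctbp2*, and its intronic value leaves out the stretch over that gene.

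The other FGF ligands had few reads. Of 22 ligand genes, 7 had at least 10 reads and 6 had none in either library. Besides *Fgf4*, *Fgf15* was more than 2-fold higher in ESCs, with 12 and 4 reads, and its interval includes no change (0.937 to 13.1, ESC over NPC). In the other direction, *Fgf3* had 4 reads in ESCs and 81 in NPCs (19.7-fold, 7.39 to 73.9), and *Fgf10*, a ligand of IIIb receptors, had 10 and 123 (11.9-fold, 6.28 to 25.5). *Fgf5*, a marker of the epiblast, had 3 and 18. *Fgf15* and *Fgf5* had under 50 reads and were named after their values were seen. Of the 22 ligand genes *Fgf4* had the most reads in NPCs too, at 248.

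Of 15 FGF receptors and co-receptors with at least 10 reads, 7 were more than 2-fold higher in NPCs and 0 in ESCs, beside 25.5% and 13.3% of all genes, with a median log2 ratio of 0.80 beside 0.35 for all genes. Apart from *Fgfr2* and *Fgfr3*, the largest ratios were those of *Flrt2* (10 and 307 reads, 29.8-fold, 16.0 to 62.8) and *Flrt3* (42 and 1128, 26.1-fold, 19.2 to 36.4), which encode membrane proteins that bind FGF receptors. *Klb*, the co-receptor of endocrine FGFs, had 12 and 260 reads (21.03-fold, 11.8 to 41.2), and the glypican *Gpc4* had 74 and 574 (7.53-fold, 5.90 to 9.73). *Fgfrl1*, a receptor without kinase domain, had 42 and 48 reads. All 10 genes for the synthesis and trimming of heparan sulphate, the co-factor of FGF binding, had at least 10 reads, with 4 more than 2-fold higher in NPCs (*Sulf1*, *Ext1*, *Ndst2* and *Ext2*) and 0 in ESCs, beside 25.5% and 13.3% of all genes. Their median log2 ratio was 0.89 beside 0.35 for all genes. The endoderm markers given beside *Pdgfra* moved with these lists as well, and their part was not tested.

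Of 7 PDGF ligand and receptor genes, 5 had at least 10 reads. *Pdgfrb*, the other PDGF receptor, went opposite to *Pdgfra*, with 93 reads in ESCs (21.8 RPM) and 21 in NPCs (4.77 RPM), 4.56-fold higher in ESCs (2.82 to 7.71). *Pdgfrb* is 1 of 12 fibroblast markers with at least 10 reads, of which 3 were more than 2-fold higher in ESCs (*Pdgfrb*, *Thy1* and *Fbln1*), 3 in NPCs, *Acta2* and *Col1a2* among them, and 6 in neither. The median log2 ratio of these markers was 0.34, next to 0.35 for all genes, and the part of the feeder cells was not tested. The ligand genes differed little. *Pdgfa* had 44 and 62 reads (ratio of NPC to ESC 1.37, 0.915 to 2.06) and *Pdgfb* 34 and 40 (1.14, 0.705 to 1.86), and both intervals include equality.

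The 21 genes of the adaptors and the Ras-MAPK core all had at least 10 reads, with 6 more than 2-fold higher in NPCs (25.5% of all genes), 1 in ESCs (13.3% of all genes) and a median log2 ratio of 0.52 beside 0.35 for all genes. The count towards NPCs is near the background. *Ptpn11*, the phosphatase SHP2, had 253 and 909 reads (3.49-fold higher in NPCs, 3.03 to 4.03), and the adaptor gene *Frs2* 186 and 586 (3.06-fold, 2.59 to 3.63). Its relative *Frs3* went the other way, with 60 and 19 (3.25-fold higher in ESCs, 1.91 to 5.77). *Map2k2*, an ERK kinase, had 32 and 107, and *Rasa1*, which switches Ras off, 54 and 164.

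Among 23 annotated feedback and target genes of ERK, 21 had at least 10 reads, 4 of them more than 2-fold higher in ESCs and 5 in NPCs, near the 13.3% and 25.5% of all genes. The median log2 ratio was 0.03 beside 0.35 for all genes. Besides *Spry4* and *Etv5*, the genes higher in ESCs were *Etv4*, the close relative of *Etv5*, with 114 and 21 reads (5.59-fold, 3.49 to 9.38), and the immediate-early gene *Fos*, with 412 and 123 (3.45-fold, 2.81 to 4.26). In the other direction *Dusp5*, a nuclear phosphatase of ERK, had 65 and 328 reads (4.90-fold, 3.74 to 6.50), *Phlda1* 12 and 49 (3.96-fold, 2.08 to 8.19), and *Dusp9*, a further ERK phosphatase, 654 and 1447 (2.15-fold, 1.96 to 2.36).

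**Figure D5:**
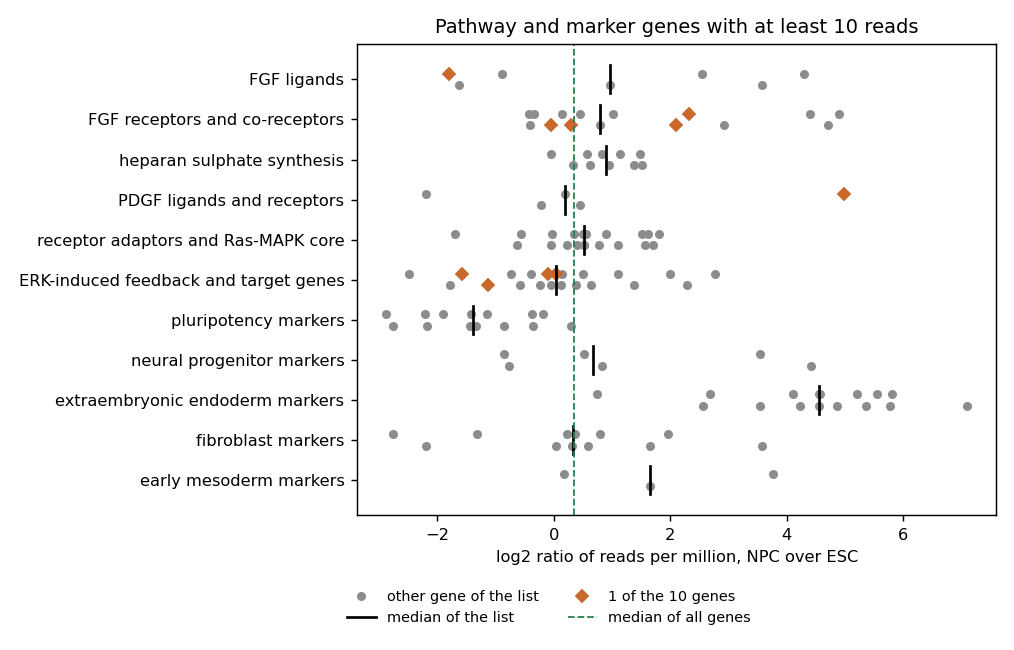
Log2 ratio of RPM in NPCs over ESCs for every gene with at least 10 reads in the pathway and marker lists (points, orange diamonds for the 10 genes), with the median of each list as a black bar and that of all genes as a dashed line. The extraembryonic endoderm markers have a median of 4.56 and the pluripotency markers one of -1.38, while the feedback and target genes have one of 0.03.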

How the data were processed

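NPA RNA of R1 ESCs and derived NPCs was sequenced on SOLiD, strand-specifically, in 1 library each. Per the labels and the study's methods, the authors removed ribosomal RNA, made libraries from 2 µg of RNA with 15 PCR cycles, aligned reads to mm9 with Bowtie, kept 1 placement for reads with several and filtered out mitochondrial, ribosomal and repeat reads. The deposited values are read positions and strands, 1 line per read, with no normalization. No test was possible with 1 library per cell type, and samples were grouped by the cell type in their labels.

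Reads overlapping the exons of a gene by at least 1 base on its strand were counted against GENCODE M1 and scaled to RPM by library total, and RPKM used the length of all merged exons. A log2 ratio added 1 read only where a library had 0. Counts have exact Poisson intervals, shares Clopper-Pearson intervals and ratios conditional binomial intervals, all at 95%. Read placements matched mm9 exactly in 96.0% (ESC) and 96.2% (NPC) of full-width cases, and 81.6% and 86.6% had a sequence found once. Because repeats and ribosomal reads were removed and poly(A) RNA depleted, levels are not those of the total mRNA.

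The members and lists were chosen with earlier results of these data known. Named genes were the 10 members and, from each pathway or marker list, at most 4 genes per direction with at least 50 reads and a ratio above 2, plus FGF and PDGF ligands and receptors with at least 50 reads. Not all genes the rule allows are named. *Hes5*, *Fabp7*, *Olig2*, *Pax6*, *Zic1*, *Sox3*, *Pou3f2*, *Nes*, *Msi1*, *Dll1*, *Otx2*, *Ttr*, *Lum*, *Fgf5* and *Fgf15* were added with their values seen. So were *Kdr*, *Eomes*, *T*, *Tbx6*, *Mixl1*, *Mesp1* and *Msgn1*. *Sox1* and *Spry3* were not analysed here, and some single values and sequences are not reported here. The tiling arrays of the study were not used. Sequences are mm9 reference bases. As alternatives, reads sharing a start and strand were counted once. Others used other scalings, only unique sequences, coding sequence, the 5′ or 3′ part, 5′ ends or both strands, and changed the read minimum or the reads added. The counting was tested on simulated data. Python 3.11.15, NumPy 2.4.6, pandas 2.3.3, SciPy 1.17.1, numba 0.67.0 and matplotlib 3.10.9 were used.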

Additional observations from a re-analysis of the deposited data

How the results depend on the processing

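With 1 library per cell type, biological spread is unknown. Counts under 50 reads limit the ratios of *Fgfr2*, *Fgfr3* and *Pdgfra*, where they occur in ESCs, and of *Fgfr4*, where they occur in both libraries. No paired analysis was possible because each cell type had 1 library. The counts of 3 genes higher in ESCs and 3 in NPCs and the median were recomputed under each alternative. Over the 3′ part 2 genes were more than 2-fold higher in ESCs, and in all other alternatives both counts stayed at 3. Of the 42 values, 2 were classed as moved. Both were the median log2 ratio of the 10 genes, which changed sign there. It went from -0.0061 to 0.038 over coding sequence only and to 0.0071 over the 5′ part of the exonic sequence. Alternatives that kept its sign moved it further, to -0.35 when scaled by the median of ratios, to -0.23 with each start counted once and to -0.09 with unique sequences. Of 139 log2 ratios of single genes 124 stayed within their counting intervals, 15 moved beyond them and 0 changed the direction of a ratio past 2-fold. *Fgf4*, *Fgfr2*, *Fgfr3*, *Pdgfra* and *Spry4* were past 2-fold in all 14 alternatives and *Etv5* in 13, the exception being the 3′ part at -0.82. When each start position and strand was counted once, *Pdgfra* fell from 4.98 to 3.85 and *Fgfr3* from 2.09 to 1.38, while the median of all genes went from 0.35 to 0.02. The cause was not tested. *Fgfr2* without the exons shared with *Ctbp2* was added after seeing the data.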
